A study of Mus musculus with 8 samples.

Results

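The 7 genes described here encode the beta 1 and beta 2 (Gabrb1, Gabrb2), gamma 1 and gamma 3 (Gabrg1, Gabrg3), delta (Gabrd), epsilon (Gabre) and theta (Gabrq) subunits of the GABA-A receptor. They are selected by gene symbol, a rule that reads no measured value, although the choice was made with earlier results of these data known. They account for 7 of the 24343 genes and 8 of the 34535 transcripts in the whole-brain RNA-seq table. Whole brains came from 3 C57BL/6NCrl mice with no treatment given, 56 to 62 days of age, and served as a bulk reference for spatial imaging of the mouse brain. Mice 1 and 2 gave 3 libraries each and mouse 3 gave 2. What the library numbers stand for and the sex of the mice are not in the labels, so differences between libraries of a mouse may be technical. All mice are of 1 condition, and no treated group exists. A library of whole brain averages over all regions and cell types, so that fewer cells of a type and less RNA per cell cannot be told apart.

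GABA-A receptors are chloride channels made of 5 subunits around a central pore, opened by GABA, the main inhibitory transmitter of the adult brain. Most contain alpha and beta subunits, between which GABA binds, and a further subunit that sets location and pharmacology. Receptors with a gamma subunit are found at synapses, whereas those with delta lie mostly outside them, where they carry tonic inhibition in cerebellar granule cells, dentate granule cells and thalamic neurons. The gamma 1 subunit is known from a few forebrain and hypothalamic nuclei and from Bergmann glia. Epsilon and theta are known mainly from hypothalamic and brainstem neurons, many of them monoaminergic.

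The genes lie near alpha subunit genes, except Gabrd. In the coordinates of the deposited table (mm10), Gabrg1 (chr5:70751047-70842617) and Gabrb1 (chr5:71700016-72137244) flank Gabra2 and Gabra4 on chromosome 5. Gabrb2 (chr11:42419757-42632591) follows Gabra6 on chromosome 11. Gabrg3 (chr7:56724242-57386871) ends 20.8 kb before Gabra5 on chromosome 7. Gabre (chrX:72257432-72274721) and Gabrq (chrX:72825178-72842602) lie on either side of Gabra3 on the X chromosome. Gabrd (chr4:155384979-155398069) is the only one of the 7 on chromosome 4.

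The coding sequence of the pore-lining second transmembrane segment can be recognised in all 7 genes, and it is shown to let the members be compared. Each stretch holds 20 codons, read 5′ to 3′ on the coding strand from the GENCODE M21 transcript (GRCm38) matched to the deposited one. Capitals mark bases that differ from Gabrb2, which has none.
Gabrb2: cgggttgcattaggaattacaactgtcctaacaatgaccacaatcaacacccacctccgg
Gabrb1: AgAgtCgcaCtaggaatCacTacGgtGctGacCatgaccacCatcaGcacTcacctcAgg
Gabrg1: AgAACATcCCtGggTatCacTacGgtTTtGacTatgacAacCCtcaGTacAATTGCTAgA
Gabrg3: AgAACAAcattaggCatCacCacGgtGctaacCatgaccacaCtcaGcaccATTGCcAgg
Gabrd: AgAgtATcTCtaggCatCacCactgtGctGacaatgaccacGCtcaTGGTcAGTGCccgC
Gabre: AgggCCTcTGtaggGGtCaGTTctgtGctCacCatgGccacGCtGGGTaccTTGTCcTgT
Gabrq: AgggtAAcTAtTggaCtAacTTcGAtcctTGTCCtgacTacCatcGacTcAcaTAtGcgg

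Of the 60 bases, 17 were the same in all 7 genes. Gabrb1 differed from Gabrb2 at 14 bases and in the amino acid of 1 codon. Gabrg1 and Gabrg3 differed from each other at 16 bases and also in 1 amino acid. Gabrd differed from Gabrb2 at 23 bases and in 6 amino acids. Gabre and Gabrq were the most unlike the others at the protein level, with 12 and 10 of 20 amino acids different from Gabrb2, and they differed from each other in 15. In every gene an intron interrupts this stretch after base 13, between exons 8 and 9 of Gabrb2 and exons 7 and 8 of the other 6. On the genome the stretch with its intron runs over chr11:42593937-42597587 on the plus strand in Gabrb2 and over chrX:72258238-72258426 on the minus strand in Gabre.

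Whether the genes could share reads was checked only through exact runs of 50 bases, and matches with a few differing bases were not checked. No run of 50 bases in the matched transcripts of Gabrb1, Gabrb2, Gabrg1, Gabrg3, Gabrd or Gabrq was found in a GENCODE transcript of another gene. Gabre shared 14 of its 4234 distinct runs with transcripts of Cngb1, Grk2 and Unc13b. No exon of the matched transcripts overlapped an exon of another annotated gene on either strand. The gene models do differ in completeness. The deposited Gabrb1 transcript (NM_008069) is 1860 bases long against 13737 for the longest GENCODE coding transcript, and the deposited Gabrg3 transcript (NM_008074) is 1673 bases long against 9767. The deposited Gabrb2 transcript (NM_008070) is longer than its GENCODE match, 7552 against 3989 bases. Its extra part was not checked for shared runs or overlaps. Values are in FPKM, fragments per kilobase of transcript scaled to the mapped fragments of the library, which depend on the length of the model used.

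Sequence read on transcripts, estimated as deposited coverage times length, came to between 1.31 and 2.02 gigabases per library. The part on Gabrb2 was 520 to 899 kilobases per library. For Gabrg3 it was 4.02 to 9.41 kilobases and for Gabre 1.32 to 3.83 kilobases, so that these 2 genes are the least precisely measured. All levels below are means over the mean of each mouse, with the SD over 3 mice. No interval was computed from read counts, and the bounds cited below are those deposited with each FPKM value.

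Levels spanned 112.4-fold between Gabrb2 and Gabre. The order was Gabrb2, Gabrd, Gabrb1, Gabrg1, Gabrg3, Gabrq, Gabre, and it was the same in 7 of the 8 libraries. In library 2 of mouse 3, Gabrg1 stood above Gabrb1. The ranges of the 3 mouse means overlapped for a single pair of neighbours, Gabrb1 and Gabrg1. Over single libraries Gabrg3 and Gabrq overlapped too, although Gabrg3 was the higher within each of the 8 libraries.

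**Figure D1:**
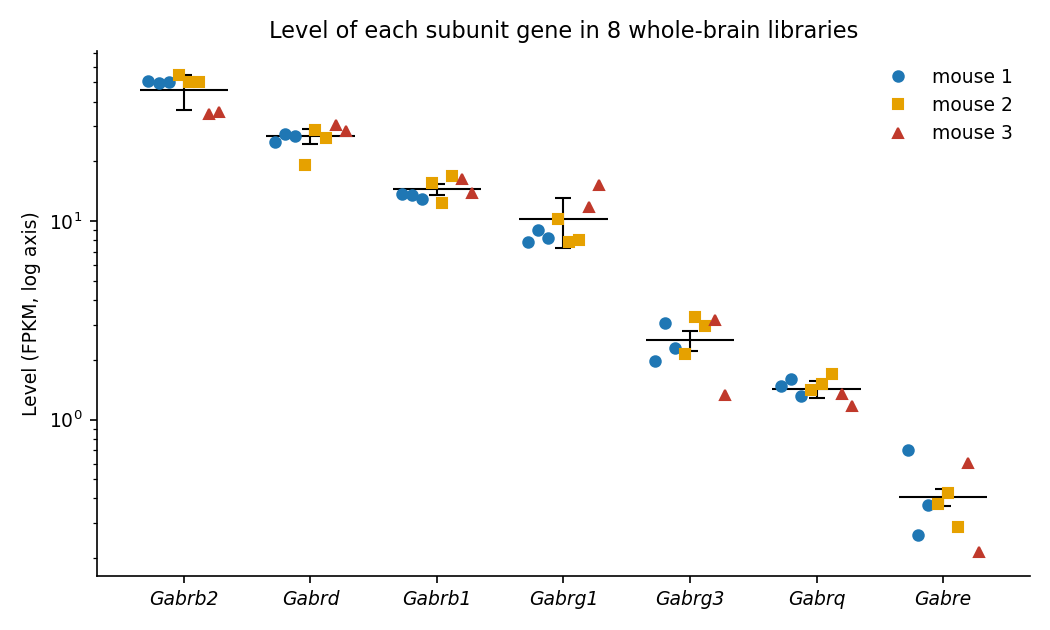
Level of each of the 7 genes in FPKM on a log axis, with 1 point per library coloured by mouse, the mean of the mouse means as a horizontal line and the SD over 3 mice as bars. Gabrb2 lies lowest in both libraries of mouse 3 (34.6 and 35.7 FPKM), and Gabrg1 lies highest there (11.8 and 15.2 FPKM).

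Beta subunits supply one face of the GABA site, and of the 2 beta subunit genes described here Gabrb2 was the higher. Gabrb2 read 50.7, 49.4 and 50.04 FPKM in mouse 1, 54.5, 50.4 and 50.3 in mouse 2, and 34.6 and 35.7 in mouse 3. Both libraries of mouse 3 lay below all 6 of the others. The mean was 45.6 ± 9.13 FPKM (SD, n = 3 mice), which ranks 1413 of 24343 genes. Gabrb1 read 13.7, 13.5 and 12.9 FPKM in mouse 1, 15.6, 12.3 and 16.9 in mouse 2, and 16.4 and 13.9 in mouse 3. Mouse 2 overlapped the other mice, while both libraries of mouse 3 lay above the 3 of mouse 1, and the mean of 14.5 ± 0.980 FPKM (SD, n = 3) ranks 4460. Within a library Gabrb2 was 2.11 to 4.09 times as high as Gabrb1, with a mean ratio of 3.20 ± 0.756 (SD, n = 3). Mice 1, 2 and 3 gave ratios of 3.75, 3.52 and 2.34. Because Gabrb1 was measured over 13.5% of its longest annotated length, the ratio holds for the deposited models.

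The delta subunit gene, Gabrd, was second in the order. It read 25.1, 27.6 and 27.0 FPKM in mouse 1, 19.2, 28.7 and 26.3 in mouse 2, and 30.4 and 28.5 in mouse 3. Library 1 of mouse 2 stood below the other 7 libraries, and the remaining libraries of mouse 2 fell among those of the other mice. The mean was 26.9 ± 2.36 FPKM (SD, n = 3; rank 2522). Gabrd thus stood above the summed level of Gabrg1 and Gabrg3 in every library, with a ratio of 2.17 ± 0.296 (SD, n = 3) and a range of 1.56 to 2.58 over libraries. Among the alpha partners with which delta is known to assemble, Gabra6 of cerebellar granule cells was at 33.9 ± 3.94 FPKM and Gabra4 of forebrain and thalamus at 28.4 ± 2.00 FPKM (SD, n = 3).

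Of the 2 gamma subunit genes described here, Gabrg1 was the higher. On FPKM it varied most between mice among the 7 members. It read 7.83, 9.07 and 8.25 FPKM in mouse 1, 10.2, 7.85 and 8.02 in mouse 2, and 11.8 and 15.2 in mouse 3. Both libraries of mouse 3 lay above the other 6. The mean was 10.2 ± 2.89 FPKM (SD, n = 3; rank 5868), a coefficient of variation of 28.3% against a median of 12.35% over the 13001 genes whose mean reached 1 FPKM. Gabrg3 read 1.97, 3.08 and 2.299 FPKM in mouse 1, 2.14, 3.29 and 2.97 in mouse 2, and 3.17 and 1.33 in mouse 3. The 2 libraries of mouse 3 held the lowest value and the second highest, so that its spread lay within mice rather than between them. The mean was 2.50 ± 0.278 FPKM (SD, n = 3; rank 11054). The bounds deposited with each Gabrg3 value reach 25.1% to 37.8% of it to either side, against 2.57% to 3.34% for Gabrb2.

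The 2 X-linked members were the lowest. Gabrq, the theta subunit gene, read 1.47, 1.61 and 1.32 FPKM in mouse 1, 1.42, 1.503 and 1.71 in mouse 2, and 1.35 and 1.17 in mouse 3. Mouse 1 overlapped the other mice, and both libraries of mouse 3 lay below the 3 of mouse 2. The mean was 1.42 ± 0.144 FPKM (SD, n = 3; rank 12342). Gabre, the epsilon subunit gene, read 0.699, 0.262 and 0.370 FPKM in mouse 1, 0.376, 0.427 and 0.288 in mouse 2, and 0.606 and 0.215 in mouse 3. The libraries within mouse 1 and within mouse 3 spread over most of the whole range, and the mean of 0.406 ± 0.0403 FPKM (SD, n = 3; rank 14537) was under the 1 FPKM needed for the test between mice. Its deposited bounds reach 41.1% to 70.7% to either side. The X-inactivation transcript Xist stayed at or under 0.0169 FPKM in each mouse mean, and the summed level of 4 Y-linked genes and Xist was 33.2 and 33.1 FPKM in the libraries of mouse 3 and 36.1 to 39.0 FPKM in the other 6, so that Y-linked RNA was read in every library. Among markers of monoamine neurons, Th, the rate-limiting enzyme of catecholamine synthesis, was at 6.70 ± 0.545 FPKM, and Tph2, its counterpart for serotonin in the brain, at 1.87 ± 1.17 FPKM (SD, n = 3).

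Gabrq was the only member with more than 1 deposited transcript, and they encode different ends of the subunit. NM_001290435 (4943 bases) was at 1.21 ± 0.120 FPKM and NM_020488 (2258 bases) at 0.211 ± 0.0620 FPKM (SD, n = 3). The longer transcript thus took 85.5% ± 3.73 of the gene's FPKM (SD, n = 3), from 76.1% to 95.1% over the libraries. In the matched GENCODE models the longer RNA has the shorter coding sequence, 525 codons against 638, and the first 523 are shared. The junction is shown because it carries this difference, with the last 15 shared bases in lower case and the next 15 bases of each transcript in capitals. The shared bases end at chrX:72838135 on the plus strand. NM_020488 reads on in its last exon, while NM_001290435 is spliced to a last exon that begins at chrX:72839509.
NM_020488: ccagattagccagagGTGTGTGCAAGAAGC
NM_001290435: ccagattagccagagTGCATAGTAAGTGTC

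After the junction NM_020488 codes for 115 further amino acids and NM_001290435 for 2. The last transmembrane segment of receptors of this family lies close to the C terminus, in the part that follows the junction in NM_020488. The bounds of the 2 transcripts did not overlap in any library. NM_020488 was read so thinly that its lower bound was 0 in 3 of 8 libraries, and the division of shared reads between transcripts is an estimate of the authors' software.

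**Figure D2:**
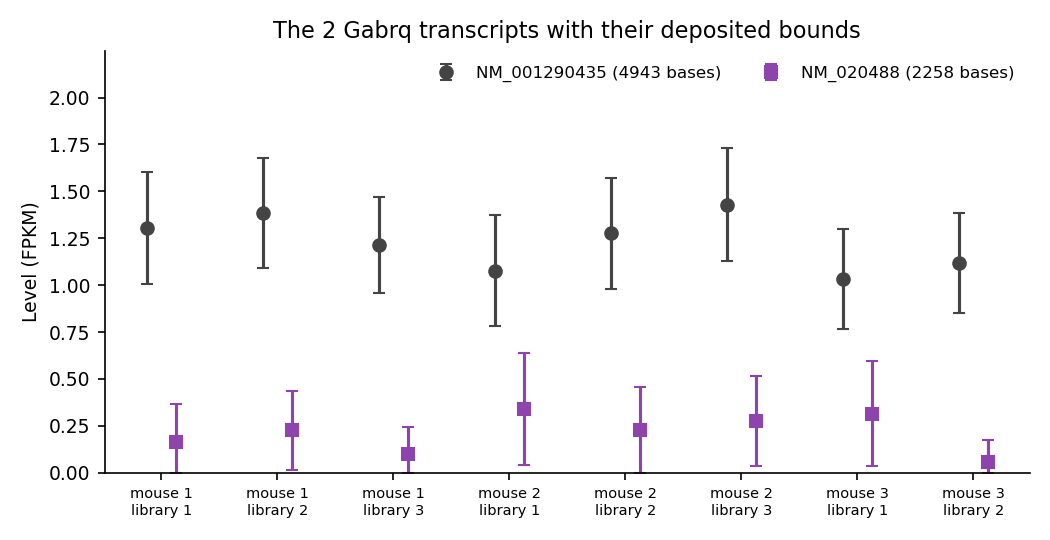
FPKM of the 2 deposited Gabrq transcripts in each of the 8 libraries, with bars from the deposited lower to the upper confidence bound. NM_001290435 lies above NM_020488 in every library, and it took 76.1% to 95.1% of the gene's FPKM.

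Mouse 3 lay somewhat below the other mice in the sum of the 7 genes and further from them in its composition. Their summed level was 102.7, 104.8 and 97.2 FPKM in mice 1, 2 and 3 (mean 101.6 ± 3.95, SD, n = 3). Gabrb2 took 48.7% of that sum in mouse 1, 49.4% in mouse 2 and 36.2% in mouse 3. Gabrg1 took 8.16%, 8.30% and 13.95% in the same order, and Gabrd took 25.9%, 23.6% and 30.3%. The ratio of Gabrb2 to Gabrg1 within a library averaged 6.00, 6.01 and 2.63 in the 3 mice. Over libraries Gabrb1 took 11.8% to 16.7% of the sum and Gabrq 1.22% to 1.60%. The thinly read Gabrg3, at 1.39% to 3.23%, and Gabre, at 0.224% to 0.689%, varied more for their size.

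**Figure D3:**
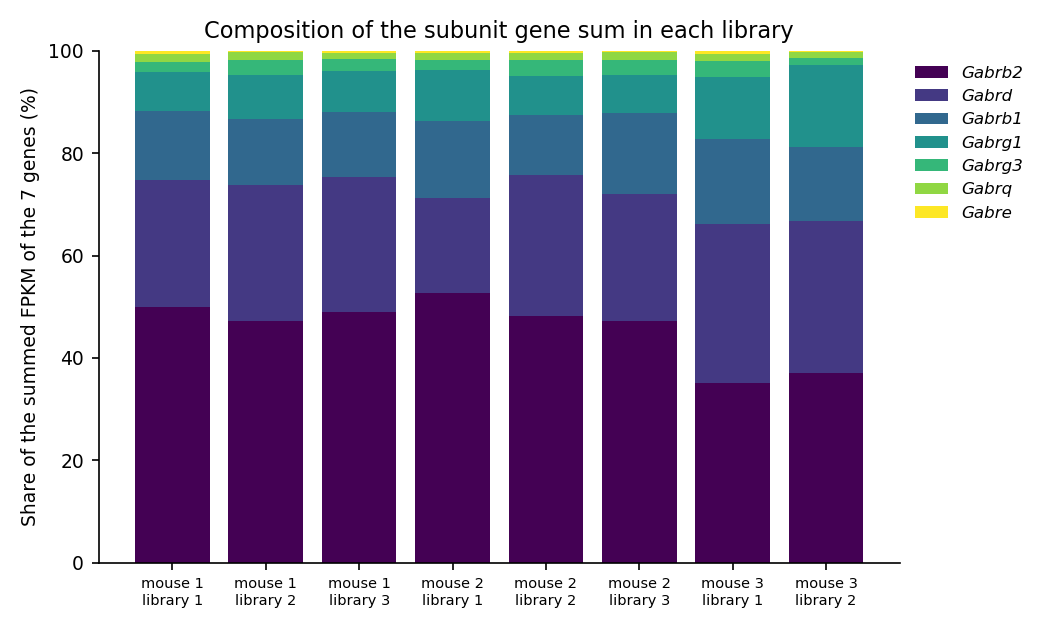
Share of each gene in the summed FPKM of the 7 genes, as stacked bars for each of the 8 libraries. The share of Gabrb2 is lowest in the 2 libraries of mouse 3 (35.2% and 37.2%), where that of Gabrg1 is highest (12.0% and 15.9%).

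A limma F-test on log2(FPKM + 1) asked whether a gene differed between the 3 mice by more than between libraries of a mouse. It compares these individual animals and no condition. Of 13001 genes tested, 25.5% passed an adjusted p of 0.05, and of the 7 members 6 were tested and 2 passed. Gabrb2 was lower in mouse 3 than in the other mice together (log2 difference from their mean -0.52, SE 0.0696, limma adjusted p = 0.00785). Gabrg1 was higher in mouse 3 by 0.60 (SE 0.125, limma adjusted p = 0.0252). The differences were 0.09 for Gabrb1, 0.20 for Gabrd, -0.20 for Gabrg3 and -0.15 for Gabrq, with limma adjusted p between 0.358 and 0.657. With 2 of 6 members against 25.5% of all genes, the members' share is read as near the background. Without the filter on low levels, where 14% of genes passed, Gabre gave a limma adjusted p of 0.942.

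Whether these 2 differences passed depended on the scale and on single libraries, while their direction was the same in all alternatives run. After each library's trend with transcript length was removed, 20.5% of genes passed, and the difference of Gabrb2, the member with the longest deposited model, shrank to -0.29 (limma adjusted p = 0.0799), while Gabrg1 stood at 0.72 (limma adjusted p = 0.0219). On TPM, where the FPKM of each library are rescaled to a common total, mouse 3 was lower by 0.26 in the median gene (median -0.256) and 42.3% of genes passed. There Gabrb2 stood at -0.83 (limma adjusted p = 0.00441), Gabrg1 at 0.35 (limma adjusted p = 0.206) and Gabrq at -0.44 (limma adjusted p = 0.0274). The log2 range of the mouse means on TPM was 0.38 for Gabrg1, below Gabrb2 (0.86), Gabrg3 (0.61) and Gabrq (0.47). It was above Gabrb1 (0.27) and Gabrd (0.14). Without library 2 of mouse 3, where mouse 3 is a single library assumed to vary like the others, 0.969% of genes and none of the 6 members passed. Gabrb2 then differed by -0.54 (limma adjusted p = 0.0551) and Gabrg1 by 0.43 (limma adjusted p = 0.214). With library number as a replicate block, Gabrg1 differed by 0.57 and no longer passed (limma adjusted p = 0.0604). The deposited bounds of Gabrb2 in the 2 libraries of mouse 3, 33.4 to 36.8 FPKM, lay clear of those in the other 6, 48.1 to 56.1 FPKM. Those of Gabrg1 did not separate, with 10.96 FPKM as the lowest lower bound in mouse 3 and 11.1 FPKM as the highest upper bound in the other mice.

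**Figure D4:**
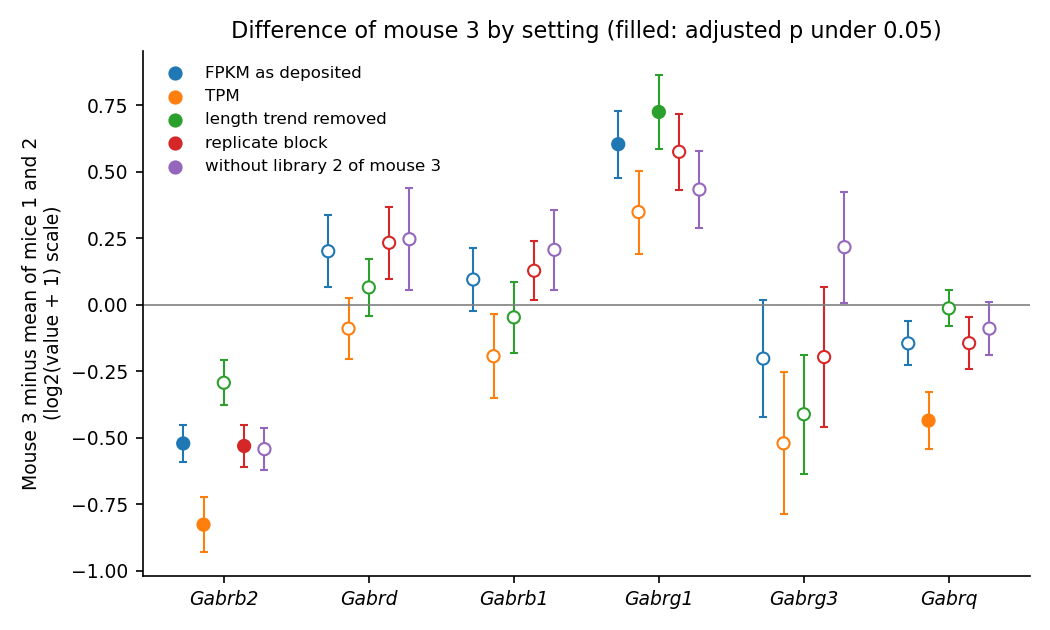
Mouse 3 minus the mean of mice 1 and 2 on the log2(value + 1) scale for the 6 members tested, with SE as bars, as fitted on FPKM, on TPM, with the length trend removed, with a replicate block and without library 2 of mouse 3. Filled points passed an adjusted p of 0.05, and Gabrb2 lies below and Gabrg1 above 0 in all 5 settings shown.

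Some markers of astrocytes and of neurons also differed in mouse 3, and others did not. Over all genes tested, 25.5% passed. Of 4 markers of astrocytes and Bergmann glia, 3 were higher in mouse 3 on FPKM. The summed level of the 4 was 402, 398 and 692 FPKM in mice 1, 2 and 3. Of these sums Aldoc alone made up 267, 264 and 506 FPKM. Aldoc, a glycolytic enzyme of astrocytes and some Purkinje cells, rose by 0.92 (limma adjusted p = 0.00510). The gap junction gene Gja1 rose by 0.52 (limma adjusted p = 0.0100) and the water channel gene Aqp4 by 0.45 (limma adjusted p = 0.0148). Gdf10, a marker of Bergmann glia, differed by -0.05 (limma adjusted p = 0.547). Of 4 neuronal markers, 2 were lower in mouse 3, Syt1, the calcium sensor of synaptic vesicles, by -0.73 (limma adjusted p = 0.00629), and Rbfox3, a splicing factor of neuronal nuclei, by -0.49 (limma adjusted p = 0.0103). The other 2 did not pass, the synaptic gene Snap25 at -0.12 (limma adjusted p = 0.404) and Stmn2 at 0.04 (limma adjusted p = 0.686). The summed neuronal level was 1634, 1557 and 1386 FPKM in mice 1, 2 and 3, of which Snap25 made up most, at 1056 ± 56.3 FPKM (SD, n = 3). Without library 2 of mouse 3, which leaves that mouse a single library, the median difference was 0.41 for the astrocyte and -0.32 for the neuronal markers. On TPM, where 42.3% of all genes passed, Aldoc was higher and Gdf10 lower in mouse 3 among the 4 astrocyte markers. Their median difference was 0.19 against 0.48 on FPKM, and 3 of 4 neuronal markers were lower. The part of these markers in the differences of Gabrg1 and Gabrb2 was not tested.

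Markers of the cells known for delta, and of tissues and blood that a brain can carry, were tested in lists of 1 to 5 genes. Such lists are too short to set against the 25.5% of all genes that passed. In the main fit none of 4 markers of cerebellar granule cells passed, with sums of 104 to 129 FPKM over the libraries. Neither of the 2 tested markers of dentate granule cells did. Nearest to passing were Neurod1 in the first list (-0.54, limma adjusted p = 0.0559) and C1ql2 in the second (0.23, limma adjusted p = 0.0561). On TPM, where 42.3% of all genes passed, 1 marker in each of these lists did, lower in mouse 3. Without library 1 or library 3 of mouse 2, where 29.8% and 21.6% of all genes passed, 1 cerebellar marker did, again lower. Of 5 choroid plexus markers Kl was lower in mouse 3, of 5 blood markers the globin gene Hbb-bt was higher, and of 3 tested monoamine markers Tph2 was higher. Tph2 read 2.00 and 4.43 FPKM in the libraries of mouse 3 and 0.878 to 1.46 FPKM in the other mice. It did not pass without library 1, 2 or 3 of mouse 1 or without library 3 of mouse 2. Nor did it pass with no filter on low levels or with the highest transcript. Without library 2 of mouse 3, that mouse rests on the library at 2.00 FPKM. The 1 pituitary gene tested, Pomc, did not pass in the main fit (0.13). It passed as lower in mouse 3 with the length trend removed (-0.33) and as higher with the replicate block (0.23). None of the 4 Y-linked genes passed on FPKM, while on TPM 3 of the 4 were lower in mouse 3.

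Of the alpha subunit genes, whose products pair with those of the members, 5 are described. None of the 5 passed the test between mice. Gabra2 was at 37.4 ± 2.57, Gabra3 at 31.0 ± 2.51 and Gabra5, the hippocampal alpha, at 19.99 ± 0.932 FPKM (SD, n = 3). On TPM, where 42.3% of all genes passed, 1 of the 5 did, lower in mouse 3. Each member next to an alpha gene was lower than its nearest alpha neighbour except Gabrb2, which was above Gabra6, 98.7 kb away, in mice 1 and 2 and below it in the mean of mouse 3 (35.1 against 38.4 FPKM). That reversal came from library 2 of mouse 3 (35.7 against 44.95 FPKM), and in library 1 Gabrb2 was the higher (34.6 against 31.8 FPKM). Gabre and Gabrq stood at 0.406 and 1.42 FPKM around Gabra3 at 31.0 FPKM, and Gabrg3 at 2.50 beside Gabra5 at 19.99 FPKM, the longest model span of these 12 genes at 663 kb. The 4 rho and pi subunit genes were each below 1 FPKM and were not tested, with Gabrr2 highest at 0.382 FPKM.

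**Figure D5:**
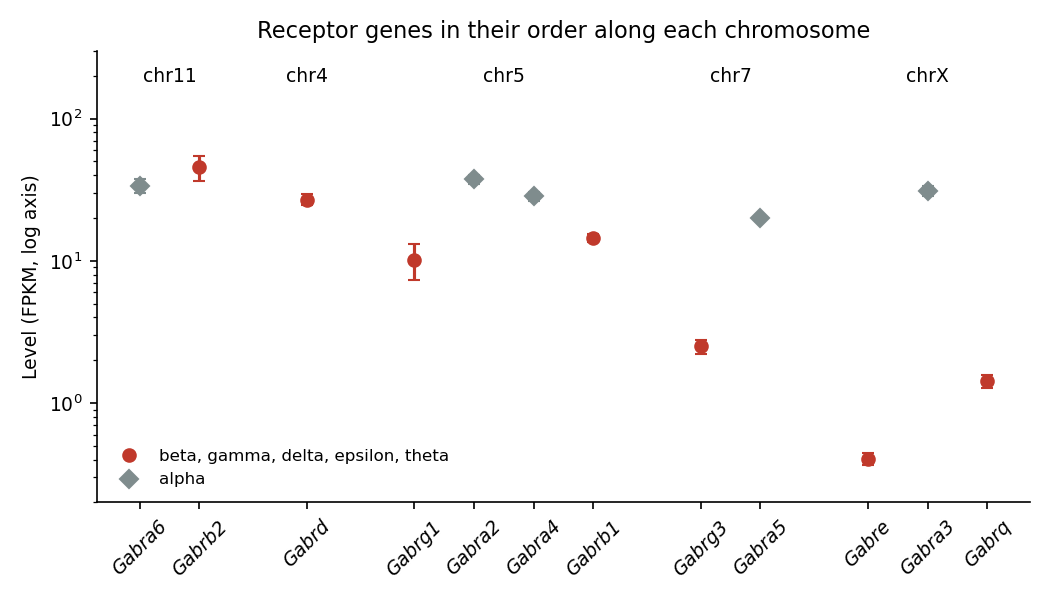
Level of the 7 members (circles) and 5 alpha subunit genes (diamonds) in FPKM on a log axis, in their order along each chromosome, with the SD over 3 mice as bars. On the X chromosome Gabre (0.406 FPKM) and Gabrq (1.42 FPKM) lie far below Gabra3 between them (31.0 FPKM).

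Genes for assembly, transport and clustering of the receptor differed between mice in 7 of 14 cases, where 25.5% of all genes tested did, 2 higher and 5 lower in mouse 3, with a median difference of -0.23 against 0.02 over all genes tested. Lower in mouse 3 was Nlgn2, the adhesion protein of inhibitory synapses (-0.48, limma adjusted p = 0.0234). Also lower were Shisa7, a receptor accessory protein (-0.64), Nsf, which acts in vesicle fusion (-0.51), Hap1 (-0.54) and Ubqln1 (-0.31), all with a limma adjusted p between 0.0140 and 0.0415. Higher were Trak2, an adaptor for kinesin transport (0.67, limma adjusted p = 0.00510), and Gabarap, which binds gamma subunits (0.47, limma adjusted p = 0.0259). Gphn, the scaffold gephyrin, differed by -0.33 without passing (limma adjusted p = 0.0573). On TPM, where 42.3% of all genes passed, 9 of the 14 did, 1 higher and 8 lower in mouse 3. Without library 1, 2 or 3 of mouse 1 the count was 4, 3 and 3. The share of all genes that passed fell there too, to 14.7%, 13.7% and 12.9%. Without library 2 of mouse 3, which leaves that mouse a single library, the median difference of the 14 was -0.15.

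For each member, the gene outside the receptor family with the nearest profile was taken as that with the smallest root mean square difference in centred log2(FPKM + 1) over the 8 libraries, among 12987 genes. For Gabrb2 it was Gng2, a G protein gamma subunit, at a distance of 0.0317, where Gabrb2 itself varied by 0.229 around its mean. For Gabrg1 it was Eif2s1, a translation initiation factor, at 0.0566 against 0.295. For Gabrd it was Mrap2, an accessory protein of melanocortin receptors, at 0.0365 against 0.182. The other members had Zfp652 nearest to Gabrb1 (0.0645), Ighmbp2 to Gabrq (0.0353), Foxq1 to Gabre (0.0659) and Ifit1 to Gabrg3 (0.106). The points share depth and the differences between mice, and the nearest of so many genes is a description of these libraries.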

How the data were processed

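Whole-brain RNA from 3 mice was sequenced as 8 libraries. The RNAqueous Micro kit served for purification and the Kapa mRNA HyperPrep kit for library construction, per the labels. The submitters' processing notes name TopHat, Cufflinks and mm10 without versions. The deposited table gives, for each transcript and library, FPKM estimated by the authors with bounds, and a deposited coverage signal per base that is not scaled for library size. The strand setting is not given in the sources used here. Whole reads could not be recovered, so no count test was run.

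FPKM of a gene's transcripts were summed and averaged per mouse and then over the mice. Differences between mice were tested with limma 3.58.1 (R 4.3.3) on log2(FPKM + 1) over all genes whose mean reached 1 FPKM, with Benjamini-Hochberg correction across these genes, after a check on simulated data. A fold change on this scale understates that of low genes. With 3 mice an exact sign-flip test cannot fall below p = 0.25, so ratios and levels were not tested. Alternatives were TPM, another pseudocount, no filter, the highest transcript, removal of the length trend, a replicate block and leaving out each library. Named were the 7 members, fixed lists of subunits, receptor partners and cell type markers, and each member's nearest gene by profile. Of the listed genes, 2 are not reported here. Members and lists were chosen with earlier results of these data known. Gene models, overlaps and sequences came from GENCODE M21 on GRCm38 by a table of RefSeq matches, which held all 8 member transcripts.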

Additional observations from a re-analysis of the deposited data

Results flagged for a closer look

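Of 15 measures tested for a library far from the rest, 2 were flagged, and chance flags about 1 in 20 where libraries and measures are independent. Here libraries share mice and several measures share the same levels, so that rate is only a rough guide. Gabrd in library 1 of mouse 2 was 19.22 FPKM, against 25.1 FPKM in the next lowest library, a gap of 0.527 of the whole range, just past the limit set by Dixon's test at 95% for 8 libraries. Library 1 of mouse 2 also had the lowest depth, 1.31 gigabases, and the highest Gabrb2 level, 54.5 FPKM. The ratio of Gabrg1 to Gabrg3 in library 2 of mouse 3 was 11.42, against 4.77 in the next highest library, a gap of 0.735 of the range. That library held both the highest Gabrg1 level (15.2 FPKM) and the lowest Gabrg3 level (1.33 FPKM). The cause of either value was not tested.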

How the results depend on the processing

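The order of the 7 genes held with TPM, with the highest transcript and in every library except library 2 of mouse 3, where 5 genes kept their rank. TPM is another unit, so its values cannot be set against the FPKM levels one by one. In TPM the levels read 42.1 for Gabrb1, 134.9 for Gabrb2, 29.0 for Gabrg1, 7.32 for Gabrg3, 77.5 for Gabrd, 1.18 for Gabre and 4.17 for Gabrq. The highest transcript alone gave Gabrq 1.21 FPKM. Leaving out each library gave 2.20 to 2.81 FPKM for Gabrg3 and 0.341 to 0.471 FPKM for Gabre. Of the 2 members that differed between the mice, 1 remained with the length trend removed (Gabrg1) and 1 with the replicate block (Gabrb2). Leaving out single libraries gave 0 to 2, with Gabrg1 lost without library 1 or library 3 of mouse 1 (differences 0.58 and 0.60, limma adjusted p = 0.0540 and 0.0581) and both lost without library 2 of mouse 3. The count over all genes was 3310, and it was 5493 with TPM, 2171 with the highest transcript and 126 to 3873 when single libraries were left out. Deviations of libraries with the same number correlated by 0.00276 to 0.107 over 7 pairs, and those with different numbers by -0.135 to 0.0645. What the numbers stand for is not known, so the block is given as an alternative. On TPM the differences of Gabrb1 and Gabrd turned to -0.19 and -0.09 (limma adjusted p = 0.416 and 0.575). With the length trend removed Gabrb1 stood at -0.05 (limma adjusted p = 0.444). Depth limited Gabre and Gabrg3 most. The causes of these shifts were not tested.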
